A study of Mus musculus with 2 samples.

Results

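The genes described here are 9 costimulatory and modulating receptors of the T cell surface, with ICOS included together with its ligand. They were chosen by symbol, namely Cd28, Icos, Icosl, Cd27, Tnfrsf9, Cd226, Cd2, Cd5 and Cd6, and all 9 were found among the 22609 genes listed in the deposited counts. RNA came from CD8+ regulatory T cells, a CD8+ population that restrains other immune cells, sorted by flow cytometry from the spleens of mice 3 months old that had not been immunised. The double-knockout library (DKO) came from Tgfbr2-/-Eomes-/- mice, which by genotype lack a TGF-beta receptor subunit and the T-box transcription factor Eomes, and the other library came from wild-type (WT) mice. How many mice went into each library and how and in which cells the genes were deleted are not stated in the labels. Both deposited tables are named with a tag for a positive sort, whose marker the labels do not spell out.

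Gene counts summed to 19661212 in the DKO library and 22307065 in the WT library. Levels are given as CPM, counts per 1000000 gene counts, scaled by TMM, a method that sets the bulk of genes equal between libraries. With 1 library per genotype there is no replicate check and no p-value, so intervals, all exact and at 95%, reflect counting alone and set library against library rather than genotype against genotype. Eomes had 180 CPM in the DKO library and 469 CPM in the WT library, and Tgfbr2 had 244 CPM in the DKO library and 357 CPM in the WT library, so reads of both targeted genes were lower but present in the DKO library. The labelled cell type was checked against 6 genes of the T cell receptor complex and the CD8 co-receptor, whose summed level was 4692 CPM in the DKO library and 4968 CPM in the WT library. Cd8a was at 978 CPM in the DKO library and 998 CPM in the WT library, while Cd4 was at 79.0 CPM in the DKO library and 17.4 CPM in the WT library. Markers of other cells had reads too. Neutrophil markers summed to 2507 CPM (DKO) and 597 CPM (WT), and macrophage and monocyte markers to 1667 CPM (DKO) and 880 CPM (WT). B cell markers summed to 93.7 CPM (DKO) and 137 CPM (WT), of which Cd22 alone held 24.1 CPM (DKO) and 82.8 CPM (WT).

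A T cell needs a signal through its antigen receptor and further signals from costimulatory receptors to divide, survive and act. CD28 binds CD80 and CD86 and signals through phosphoinositide 3-kinase, and ICOS, its relative on activated T cells, binds ICOS ligand. CD27 and 4-1BB (encoded by Tnfrsf9) belong to the TNF receptor family and signal through TRAF adaptors to NF-kappaB. CD226 is an activating receptor of CD8+ T cells and NK cells that shares its ligands with the inhibitory receptors TIGIT and CD96. CD2 is an adhesion receptor that binds CD48 in mice, while CD5 and CD6 are scavenger-type receptors that tune the antigen receptor signal. CD28, CD27 and CD2 are carried by resting T cells, whereas ICOS and 4-1BB are induced by activation.

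In the DKO library, 3 of the 9 transcripts were higher by 1.62- to 1.88-fold (Icos, Cd226 and Icosl), 5 were lower by 1.09- to 1.27-fold (Cd2, Cd28, Cd6, Cd27 and Cd5), and Tnfrsf9 had nearly the same level in both libraries. The call rule asked for a ratio of 2-fold or more with an interval clear of 1, for genes that reached 1 CPM in the DKO or the WT library. It called 0 of the 9 higher and 0 lower, while 15.2% of the 11735 genes compared were past 2-fold in either direction. At a limit of 1.5-fold, 3 of 9 were higher and 0 lower, against 17.7% and 8.42% of all genes compared. Intervals lay above 1 for 3 of 9 receptors and below 1 for 5, against 35.8% and 35.7% of all genes. The median log2 ratio of the receptors was -0.13, beside 0.00 over all genes compared.

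These shares depend on abundance, since low genes pass a fold limit more often. Abundance classes go by the higher CPM of the 2 libraries, so a gene can enter a class through the library where it is higher. Past 2-fold in either direction were 2.93% of genes with at least 100 CPM, 5.40% from 20 to 100 CPM and 22.6% from 5 to 20 CPM. All 9 receptors passed the minimum of 1 CPM, and each did so in both libraries. In the class of 2627 genes that reached 100 CPM, 4.07% were 1.5-fold or more higher and 3.65% lower by that much. Cd226 was the only one of the 3 higher receptors in that class, and its ratio was above that of 97.3% of the genes in it. It reached 100 CPM in the DKO library alone (164 CPM, against 91.6 CPM in the WT library). Its place in that class thus depends on the library where it is higher. Icos and Icosl belonged to the 4928 genes from 20 to 100 CPM, of which 9.62% were 1.5-fold or more higher. Their ratios were above those of 94.6% and 92.2% of that class. The median log2 ratio of genes with at least 100 CPM was -0.09. Cd2, Cd28 and Cd6 had ratios above those of 45.0%, 33.5% and 30.9% of that class, and Cd27 and Cd5 above those of 16.9% and 16.5%.

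**Figure D1:**
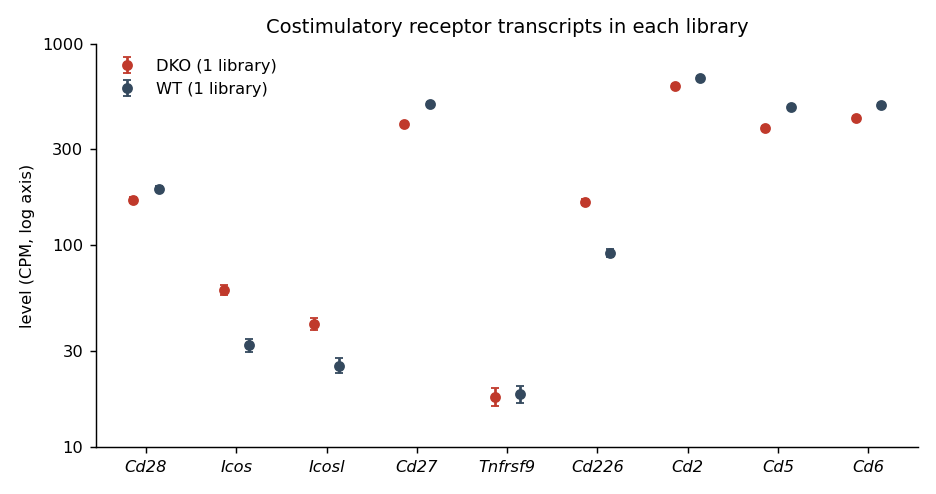
Level of each of the 9 receptor transcripts in CPM (log axis) in the DKO library (left point of each pair) and the WT library (right point). Bars are exact Poisson 95% counting intervals, often smaller than the point. The 3 higher genes, Icos, Icosl and Cd226, stand with the DKO point above the WT point, and for Tnfrsf9 the bars overlap.

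**Figure D2:**
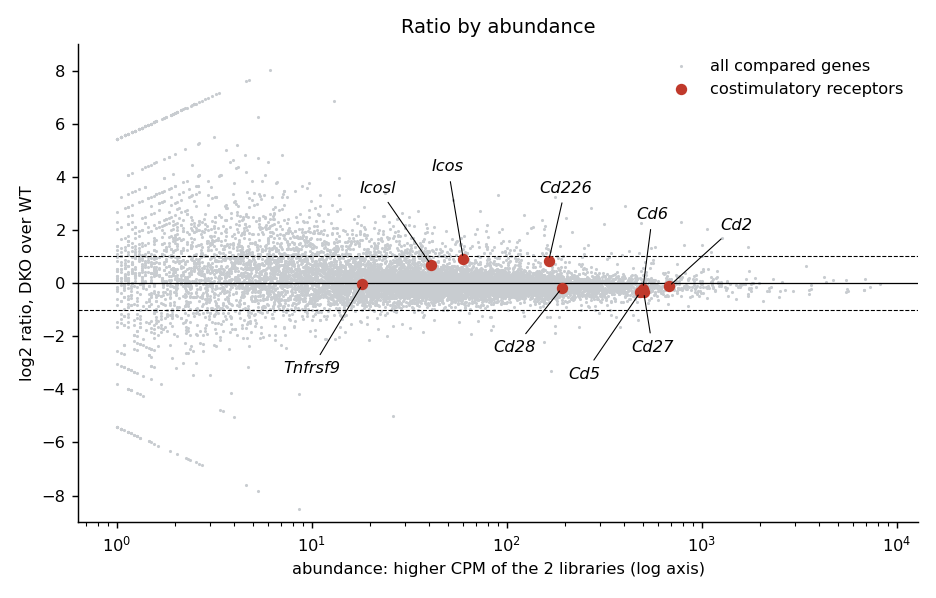
Log2 ratio of the DKO library over the WT library against abundance (the higher CPM of the libraries, log axis) for 11735 genes, with the 9 receptors in red. Dashed lines mark 2-fold, and all 9 receptors lie between them, with Icos, Cd226 and Icosl nearest to the upper line.

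Within one gene cluster of the CD28 family, Icos and Ctla4 were higher in the DKO library and Cd28 was slightly lower. The log2 ratio of Cd28 was -0.20, beside a median of -0.09 for genes with at least 100 CPM. Cd28 had 3346 counts in the DKO library and 4203 in the WT library, or 167 and 192 CPM, which was 1.14-fold lower (interval 1.09 to 1.20). Icos had 1199 counts in the DKO library and 700 in the WT library, or 60.0 and 31.9 CPM. This was 1.88-fold higher (1.71 to 2.07), the highest ratio of the 9 receptors, and the interval reached past 2-fold. Cd28, Ctla4 and Icos lie next to each other in that order on chromosome 1. Ctla4, between them, encodes the inhibitory receptor that competes with CD28 for its ligands. It had 186 counts in the DKO library and 53 in the WT library, a ratio of 3.85 (2.82 to 5.33). It stood in the class from 5 to 20 CPM through the DKO library alone (9.30 CPM, against 2.42 CPM in the WT library).

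Ratios of reads between genes of the same library do not depend on the scaling, so they were used to compare receptors that share ligands or family. The DKO library held 18.0 Cd28 reads per Ctla4 read and the WT library 79.3. Taken as Ctla4 per Cd28, the DKO library was 4.41-fold above the WT library (3.22 to 6.12). Icos reads per Cd28 read were 0.358 in the DKO library and 0.167 in the WT library, a ratio of 2.15 (1.94 to 2.39). Both pairs therefore differed by more than counting error whichever way the libraries were scaled.

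The ligand genes of this family were higher as well. Icosl, which encodes ICOS ligand and is best known from B cells, dendritic cells and macrophages, had 818 counts in the DKO library and 555 in the WT library. This was 40.9 and 25.3 CPM, 1.62-fold higher (1.45 to 1.80). Per Icos read there were 0.682 Icosl reads in the DKO library and 0.793 in the WT library, a ratio of 0.860 (0.744 to 0.995), so Icosl differed slightly less than Icos. Cd86, a ligand of CD28 made by antigen-presenting cells, had 27.5 CPM in the DKO library and 15.4 CPM in the WT library and was 1.79-fold higher (1.56 to 2.05). Cd80, the other CD28 ligand, had 85 counts in the DKO library and 34 in the WT library and a ratio of 2.74 (1.82 to 4.21).

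Of 4 marker lists for cells that can carry Icos, Icosl, Cd80 or Cd86, those of CD4+ and FOXP3+ T cells, dendritic cells and macrophages had higher summed levels in the DKO library. The B cell list had a lower sum, through Cd22, though most of its compared genes were higher. CD4+ and FOXP3+ T cells, which can carry abundant ICOS and CTLA-4, were followed by 8 marker genes. Of these, 6 were at least 2-fold higher and 0 lower in the DKO library, while 15.2% of all genes compared were past 2-fold in either direction. The 8 summed to 268 CPM in the DKO library and 107 CPM in the WT library. Of the 6, Foxp3, Cd40lg, Il2ra and Tnfrsf4 stood in the class from 5 to 20 CPM (22.6% past 2-fold), and Cd4 and Nrp1 in that from 20 to 100 CPM (5.40%). All but Il2ra reached their class in the DKO library alone, with Foxp3, Cd40lg and Tnfrsf4 at 2.96, 1.78 and 1.46 CPM in the WT library. Foxp3 itself had 222 counts in the DKO library and 65 in the WT library. The Icos level differed by 28.1 CPM between the libraries and the Cd4 level by 61.6 CPM. Dendritic cell markers, 5 of 7 at least 2-fold higher, summed to 289 CPM in the DKO library and 180 CPM in the WT library, and macrophage and monocyte markers, 3 of 8 higher, to 1667 CPM in the DKO library and 880 CPM in the WT library. Of the 5, Xcr1, Clec9a and Zbtb46 stood in the class from 5 to 20 CPM and Siglech in that from 1 to 5 CPM, where 50.4% of genes were past 2-fold. Itgax, Lyz2, Cd68 and Fcgr3 stood in the classes above 20 CPM, where 5.40% and 2.93% were. Of the B cell markers 8 were compared, with 1 higher and 2 lower, and all 9 listed summed to 93.7 CPM in the DKO library and 137 CPM in the WT library. Cd22, 3.44-fold lower in the DKO library, held 24.1 CPM of that sum there and 82.8 CPM in the WT library. The lower sum thus rests on Cd22, and 5 of the 8 log2 ratios lay above 0, at a median of 0.43. No gene of these 4 lists was at 0 in either library. The part of these cells in the levels of Icos, Icosl, Cd80 and Cd86 was not tested. In sorted bulk RNA, more cells of a type and more RNA per cell cannot be told apart.

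Cd226 had the second highest ratio. It had 3288 counts in the DKO library and 2009 in the WT library, which is 164 and 91.6 CPM and 1.80-fold higher (1.70 to 1.90). The difference of 72.9 CPM was the largest increase among the 9 genes. As background, loss of CD226 from CD8+ T cells in tumours has been tied to Eomes, and the bearing of this on these data was not tested.

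Of the receptors that compete with CD226, Tigit was higher as well and Cd96 was higher by less. Tigit had 258 counts in the DKO library and 176 in the WT library and was 1.61-fold higher (1.32 to 1.96), and its reads per Cd226 read, 0.0785 in the DKO library and 0.0876 in the WT library, had a ratio whose interval held 1 (0.896, 0.731 to 1.10). Cd96, with 249 CPM in the DKO library and 224 CPM in the WT library, was 1.11-fold higher (1.07 to 1.16). There were 1.51 Cd96 reads per Cd226 read in the DKO library and 2.44 in the WT library, a ratio of 0.619 (0.578 to 0.663). Cd226 was thus less outnumbered by Cd96 in the DKO library. The ligand gene Pvr, which encodes CD155, had 34.6 CPM in the DKO library and 31.6 CPM in the WT library, with an interval that held 1 (0.985 to 1.22), and Pvrl2, which encodes CD112 (Nectin2 in newer annotation), had 41 counts in the DKO library and 6 in the WT library, a ratio of 7.50 (3.17 to 21.6).

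NK cells also carry CD226, and 4 of the 7 genes compared from the NK cell list were at least 2-fold higher and 0 lower in the DKO library. Of all genes compared, 15.2% were past 2-fold in either direction. Of the 4, Ncr1 and Klrb1b stood in the class from 20 to 100 CPM (5.40% past 2-fold). Tyrobp and Fcer1g stood in that of at least 100 CPM (2.93%). Klrb1b and Fcer1g reached their class in the DKO library alone. The summed level of all 8 markers listed was 954 CPM in the DKO library and 570 CPM in the WT library. Tyrobp and Fcer1g, which mark NK cells less strictly than Ncr1, held 344 and 194 CPM of the DKO sum. They were 2.18-fold and 2.04-fold higher. Ncr1, the receptor gene that most strictly marks NK cells, had 86.6 CPM in the DKO library and 33.5 CPM in the WT library, while Klre1 was 1.61-fold lower. Khdc1a had 11 counts in the DKO library and was listed at 0 in the WT library. The part of NK cells in the level of Cd226 was not tested, nor was that of other cell types in the levels of Tyrobp and Fcer1g.

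**Figure D3:**
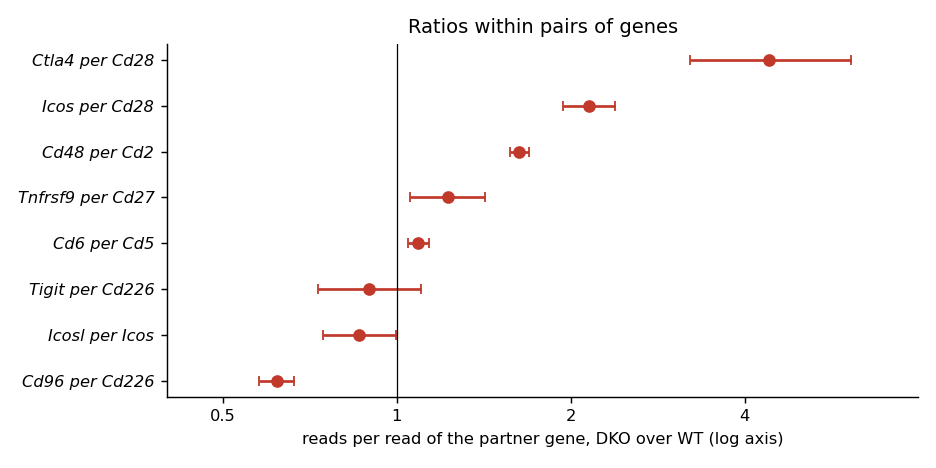
Reads of the first gene per read of the second gene, DKO library over WT library (log axis), with Fisher conditional exact 95% intervals for 8 pairs. A ratio of 1 means equal proportions; Ctla4 per Cd28 lies farthest to the right at 4.41 and Cd96 per Cd226 farthest to the left at 0.619.

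Of the TNF receptor family members, Cd27 was lower and the interval of Tnfrsf9 held 1. Cd27 had 7992 counts in the DKO library and 11065 in the WT library, which is 400 and 504 CPM and 1.26-fold lower (1.23 to 1.30). CD27 binds CD70 and is lost from T cells as they become terminal effectors. Its ligand gene Cd70 was listed at 0 in both libraries, which allows up to 0.150 CPM in the DKO library and 0.137 CPM in the WT library (3 counts each). Tnfrsf9, the gene of 4-1BB, had 354 counts in the DKO library and 400 in the WT library, or 17.7 and 18.2 CPM. Its ratio was 0.971 with an interval of 0.839 to 1.12, so a difference beyond 1.19-fold lower or 1.12-fold higher would lie outside counting error, and its sign turned positive with the total counts, or the T cell receptor genes, as the scale. Tnfsf9, the 4-1BB ligand, had 75 counts in the DKO library and 58 in the WT library and an interval that held 1 (0.994 to 2.03).

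Among 7 other costimulators of the same receptor family the median log2 ratio was 0.65. The 2-fold rule called 2 of them higher, 0 lower and 5 neither, and both stood in the class from 5 to 20 CPM, where 22.6% of all genes were past 2-fold. Both, Tnfrsf4 and Cd40, reached that class in the DKO library alone. Their WT levels of 1.46 and 2.78 CPM lie between 1 and 5 CPM, and in the class of that range 50.4% of genes were past 2-fold. Tnfrsf4, which encodes OX40 of activated CD4+ and FOXP3+ T cells, had 208 counts in the DKO library and 32 in the WT library, a ratio of 7.13 (4.90 to 10.7). Cd40, a receptor of B cells and other antigen-presenting cells, had 188 counts in the DKO library and 61 in the WT library and a ratio of 3.38 (2.52 to 4.59). Tnfrsf25 was 1.57-fold, Tnfrsf18 (GITR) 1.29-fold and Tnfrsf1b (TNF receptor 2) 1.19-fold higher, while Tnfrsf14 (HVEM) was 1.16-fold lower, at 18.8 CPM in the DKO library and 21.9 CPM in the WT library. Tnfrsf8 (CD30) had 24 counts in the DKO library and 13 in the WT library, with an interval that held 1, and it was called higher too with the total counts, or the T cell receptor genes, as the scale. The 2 genes past 2-fold are carried by other cell types too, whose marker levels are given above, and the part of those cells was not tested.

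Of 16 signalling genes of CD27 and 4-1BB the 2-fold rule called 1 lower and 1 higher, and 12 log2 ratios lay below 0 (10 on the scale of the T cell receptor genes). Over all genes compared, 15.2% were past 2-fold in either direction. Traf1, an adaptor of 4-1BB that NF-kappaB itself induces, had 120 CPM in the DKO library and 242 CPM in the WT library, a level 2.01-fold lower (1.91 to 2.11). It was the lower gene, and it came to lie inside the 2-fold limit with the total counts, or the T cell receptor genes, as the scale. Traf3, a brake on the alternative NF-kappaB pathway, was 1.54-fold lower (1.45 to 1.63), at 85.5 CPM in the DKO library and 131 CPM in the WT library. Rela, a subunit of NF-kappaB, was 1.27-fold lower, and Birc3, a ubiquitin ligase that works with TRAF proteins, was 1.25-fold higher. Lrr1, the higher gene, was named after its value was seen and had only 47 counts in the DKO library and 5 in the WT library. It reached the minimum of 1 CPM in the DKO library alone.

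The adhesion and scavenger-type receptors were all slightly lower, and together with Cd27 they had the 4 highest levels of the 9. Genes with at least 100 CPM had a median log2 ratio of -0.09 themselves. Cd2 had 12430 counts in the DKO library and 14892 in the WT library, which is 622 and 679 CPM and 1.09-fold lower (1.07 to 1.12). Cd5 had 7658 counts in the DKO library and 10631 in the WT library, which is 383 and 485 CPM and 1.27-fold lower (1.23 to 1.30). Cd6, its neighbour on chromosome 19, had 8605 counts in the DKO library and 10962 in the WT library, which is 430 and 500 CPM and 1.16-fold lower (1.13 to 1.19). Cd5 thus had the lowest ratio of the 9 receptors, close to that of Cd27. Cd6 reads per Cd5 read were 1.12 in the DKO library and 1.03 in the WT library, a ratio of 1.09 (1.05 to 1.14), so Cd5 was lower by slightly more than its neighbour.

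Of the 6 genes of the T cell receptor complex and CD8, 5 had log2 ratios below 0 (3 with total counts as the scale). By the 2-fold rule 0 were past 2-fold in either direction, with Cd3e 1.21-fold, Cd3g 1.13-fold and Cd3d 1.11-fold lower and Cd8a and Cd8b1 at log2 ratios of -0.03 and 0.02. When those 6 genes set the scale, the log2 ratio of Cd2 was -0.044, that of Cd28 -0.11 and that of Cd6 -0.13. Cd27 and Cd5 were at -0.25 and -0.26 on that scale. The part of the other cell types whose markers are given above in these small differences was not tested.

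The ligand genes of CD2 and CD6 were higher. Cd48, the mouse ligand of CD2 and a surface protein of most blood cells, had 544 CPM in the DKO library and 365 CPM in the WT library and was 1.49-fold higher (1.45 to 1.53). Cd48 reads per Cd2 read were 0.876 in the DKO library and 0.538 in the WT library, a ratio of 1.63 (1.57 to 1.69). Cd244, another receptor of CD48 on NK cells and CD8+ T cells, was 1.66-fold higher. Alcam, a ligand of CD6, had 165 counts in the DKO library and 84 in the WT library and a ratio of 2.16 (1.65 to 2.84), and Cdcp1, another CD6 ligand gene, had 52 counts in the DKO library and 1 in the WT library, a ratio of 57.1 (9.80 to 2296). Over all receptors, 8 ligand genes were compared at a median log2 ratio of 0.97, and the 2-fold rule called 4 higher, 0 lower and 4 neither. Of those 4, Cd80, Pvrl2 and Cdcp1 stood in the class from 1 to 5 CPM, where 50.4% of all genes were past 2-fold. With a minimum of 5 CPM only 1, Alcam, was called higher, and it reached that minimum in the DKO library alone (8.25 CPM, against 3.83 CPM in the WT library). Pvrl2 and Cdcp1 reached 1 CPM in the DKO library alone, with 0.274 and 0.0456 CPM in the WT library. Their calls and the median thus draw on the library where they are high. Cdcp1 also replaced Cdon in the list after values were seen, and with Cdon 3 ligand genes were higher at a median of 0.71. Neutrophil markers were 5 of 7 called higher, beside 15.2% of all genes compared past 2-fold in either direction. They summed to 2507 CPM in the DKO library and 597 CPM in the WT library. Plasma cell markers were 1 of 5 higher and 1 lower and summed to 524 CPM in the DKO library and 295 CPM in the WT library. The part of such cells in the ligand levels was not tested.

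**Figure D4:**
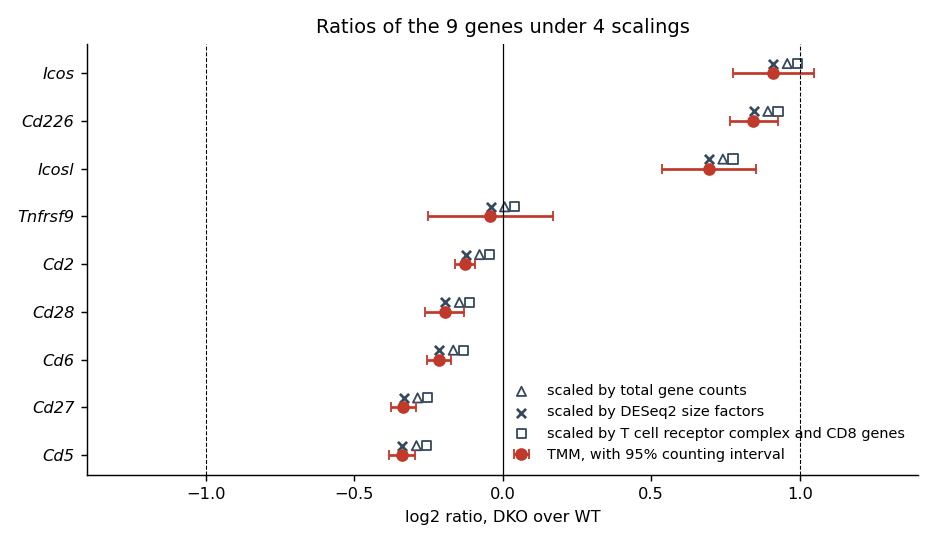
Log2 ratio of the DKO library over the WT library for each receptor with its exact 95% counting interval (red), and the same ratio under 3 other scalings (dark symbols, drawn just above). Dashed lines mark 2-fold; Icos, Cd226 and Icosl lie to the right of 0 and Cd2, Cd28, Cd6, Cd27 and Cd5 to the left under all 4 scalings, while Tnfrsf9 changes side.

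Per length of transcript the receptors kept nearly the same order in both libraries. Levels were divided by the length of all annotated exons (GENCODE M21) to allow comparison between genes. Cd2 was highest, at 357 CPM per kb in the DKO library and 390 CPM per kb in the WT library. Cd27 followed at 172 and 217, Cd5 at 77.7 and 98.3, and Cd6 at 54.0 and 62.7 CPM per kb in the DKO and WT libraries. The order changed in the lower part. Cd226, at 33.6 CPM per kb, stood above Cd28, at 27.3, in the DKO library, whereas in the WT library Cd226, at 18.7, stood below Cd28, at 31.3. Icos had 17.5 CPM per kb in the DKO library and 9.30 in the WT library. Icosl, at 8.86 CPM per kb, stood above Tnfrsf9, at 6.50, in the DKO library, and at 5.48 below Tnfrsf9, at 6.70, in the WT library. The counting intervals of neighbours that changed places did not overlap in either library. Exon lengths include every annotated isoform, so a gene with long unused exons appears lower than it is.

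Genes that act inside the cell with CD28, ICOS, CD2, CD5, CD6 and CD226 differed by less than 2-fold, as did most genes of their abundance. All stood in the classes from 20 to 100 CPM and of at least 100 CPM, where 5.40% and 2.93% of genes were past 2-fold. The median log2 ratios of these classes were -0.02 and -0.09. Over all genes compared, intervals lay below 1 for 35.7% and above 1 for 35.8%. Of 20 signalling genes of CD28 and ICOS, 0 were past 2-fold in either direction, intervals lay below 1 for 12 and above 1 for 4, and their median log2 ratio was -0.08 with 14 below 0 (10 on the scale of the T cell receptor genes). Vav1, an exchange factor downstream of CD28, was 1.46-fold lower, and the kinase genes Fyn and Lck, at 489 and 1299 CPM in the DKO library and 663 and 1721 CPM in the WT library, were 1.36-fold and 1.33-fold lower. Pdk1 was 1.31-fold higher and is counted among the 20 and among the 4 with an interval above 1. Its symbol is, however, that of pyruvate dehydrogenase kinase, a metabolic enzyme, and not of the kinase downstream of phosphoinositide 3-kinase. That kinase is Pdpk1, which had a log2 ratio of -0.07 (it was above 0 on the scale of the T cell receptor genes). Of 20 adaptor genes of CD2, CD5, CD6 and CD226, 0 were past 2-fold, intervals lay below 1 for 14 and above 1 for 2, and the median was -0.17, with 16 below 0 (14 on the scale of the T cell receptor genes). Ptpn6, which encodes the inhibitory phosphatase SHP-1, was 1.46-fold lower, Cd2ap 1.39-fold, Sh2d1a (SAP) 1.35-fold and the ubiquitin ligase gene Cbl 1.34-fold lower. Among inhibitory receptors besides Ctla4, Tigit, Cd96 and Cd244, Pdcd1 (PD-1) was 1.44-fold higher (1.14 to 1.82), with 173 counts in the DKO library and 132 in the WT library, and Btla was 1.14-fold higher. Of the 6 inhibitory or competing receptor genes, 1 was thus at least 2-fold higher, 0 lower and 5 neither, at a median of 0.60. This count is near the 15.2% of all genes compared that were past 2-fold in either direction. The 1 gene, Ctla4, stood in the class from 5 to 20 CPM, where 22.6% were, through the DKO library alone.

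**Figure D5:**
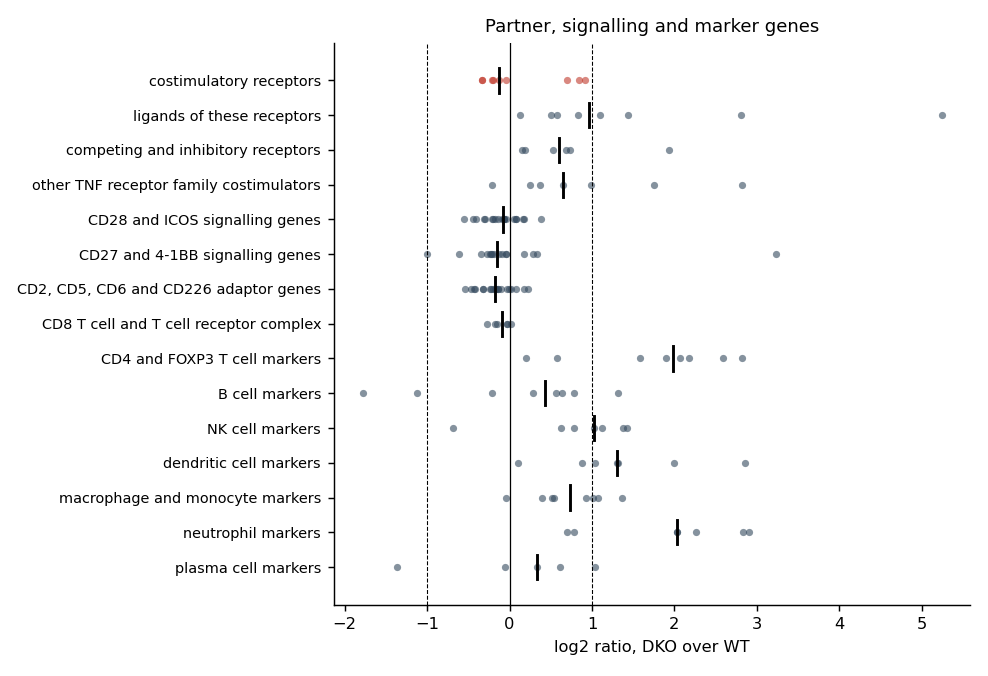
Log2 ratio of the DKO library over the WT library for each gene with at least 1 CPM in either library, by gene list; the black stroke is the list's median and dashed lines mark 2-fold. The receptors (red) fall into a group of 6 just below 0 (of which Tnfrsf9 changes side with the scaling) and a group of 3 near 0.7 to 0.9, while the 7 lists of markers for other cell types have medians between 0.33 and 2.03. The medians of the 3 signalling lists lie between -0.17 and -0.08.

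Promoter sequences are shown for Icosl, which was higher, and for Cd27 and Cd5, which were lower by nearly the same ratio, because the deleted genes act on DNA through known motifs: Eomes through T-box sites and the TGF-beta receptor through SMAD proteins. RefSeq promoters on GRCm38.p6 matched 4 of the 9 genes, these 3 and Tnfrsf9, which has 2 listed starts, and the 250 bases upstream of each start were searched on both strands for GGTGTGA (T-box), CAGAC (SMAD half-site) and GTCTAGAC (SMAD palindrome). Matches are in capitals, and each sequence reads 5′ to 3′ on the strand of its gene. They are chr10:78069118-78069367 (plus strand) for Icosl, chr6:125237028-125237277 (minus strand) for Cd27 and chr19:10738975-10739224 (minus strand) for Cd5.
Icosl: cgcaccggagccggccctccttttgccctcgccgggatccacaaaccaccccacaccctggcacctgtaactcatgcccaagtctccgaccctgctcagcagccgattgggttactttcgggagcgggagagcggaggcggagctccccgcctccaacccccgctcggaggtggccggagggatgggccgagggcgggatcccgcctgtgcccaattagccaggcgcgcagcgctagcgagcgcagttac
Cd27: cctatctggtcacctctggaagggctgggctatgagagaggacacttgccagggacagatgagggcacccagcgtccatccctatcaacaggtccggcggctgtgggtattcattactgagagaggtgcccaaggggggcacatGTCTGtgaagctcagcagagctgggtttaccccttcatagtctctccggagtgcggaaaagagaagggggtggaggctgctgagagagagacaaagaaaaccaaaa
Cd5: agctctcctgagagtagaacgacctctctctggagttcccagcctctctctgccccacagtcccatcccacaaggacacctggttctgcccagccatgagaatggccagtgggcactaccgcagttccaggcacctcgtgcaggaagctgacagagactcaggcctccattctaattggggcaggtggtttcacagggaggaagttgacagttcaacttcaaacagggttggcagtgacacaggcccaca
The T-box letters were in none of the 5 windows searched, and 3.33% of all 32851 RefSeq promoter windows of that length held them. The SMAD half-site letters occurred in 2 of the 5, both in reverse orientation, from 106 to 102 bases upstream of the Cd27 start and from 185 to 181 bases upstream of 1 of the Tnfrsf9 starts, and 42.2% of all windows held them. The SMAD palindrome, in 0.167% of all windows, was in none of the 5. A match describes letters only. GC content of the windows was 68.8% for Icosl, 56.0% for Cd27 and 56.8% for Cd5.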

How the data were processed

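Per the labels' protocols, each genotype's RNA went into 1 TruSeq total RNA library read from a single end for 50 bases. The files deposited by the authors hold raw gene counts in whole numbers. Software listed in the submitters' processing notes, with no role stated, is TopHat2 2.0.8b, bcl2fastq and HTSeq, on mm9. The annotation was not given in the sources used here, nor was the strand setting. The 5 rows that name no gene were left out: non-unique alignments held 64.8% of all rows' total in the DKO library and 66.4% in the WT library, reads outside genes 4.45% (DKO) and 4.89% (WT), ambiguous reads 0.212% (DKO) and 0.209% (WT), and the other 2 rows were 0. In GENCODE M21 (GRCm38) no exon of another gene lies on the opposite strand of the exons of the 9 genes, and 5.54% of Cd27's exon length is shared with a miRNA gene on its own strand.

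Counts were scaled by TMM factors (edgeR 4.0.16, R 4.3.3; 1.02 for DKO, 0.983 for WT). Log2 ratios used a prior count of 0.5. Intervals are Clopper-Pearson 95% intervals of the DKO share of a gene's counts turned into a ratio, and Fisher conditional exact intervals for pairs (scipy 1.17.1). PCR copies could not be told from separate molecules, so the intervals, and floors of 3 counts, include counting error alone. The functions were tested on simulated data. The genes and the 14 other lists were chosen with earlier results of these data known, and overlap (Tnfrsf4 is in 2). Named genes were the 9 receptors, the targeted genes, every gene of the lists of ligands, competing receptors and TNF receptor family costimulators, and from each other list at most 4 genes of 5 CPM or more, by size of log2 ratio; any further gene was picked after its value was seen. The ligand list was corrected after values were seen: Cdon, which is not a ligand of these receptors and was 1.42-fold lower, gave way to Cdcp1. Alternatives were scaling by total counts, by DESeq2 1.42.0 size factors or by 6 T cell receptor and CD8 genes, a prior count of 5, other minimum levels, and a 1.5-fold limit.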

Additional observations from a re-analysis of the deposited data

How the results depend on the processing

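Scaling by total counts, by DESeq2 size factors or by the 6 T cell receptor and CD8 genes added 0.05, 0.00 and 0.08 to every log2 ratio and left the count of receptors past 2-fold at 0 in each direction. The sign turned for Tnfrsf9 alone among the 9 receptors, whose interval holds 1. With total counts, log2 ratios moved beyond their counting intervals to -0.29 for Cd27, -0.29 for Cd5, -0.17 for Cd6 and -0.079 for Cd2, and with T cell receptor genes to -0.25, -0.26, -0.13 and -0.044, to -0.11 for Cd28 and to 0.93 for Cd226, through the shift itself. A prior count of 5 moved none of the 9 beyond its interval. The 1.5-fold limit gave 3 higher receptors. Over all genes, 1361 were higher and 423 lower past 2-fold; with a minimum of 5 CPM these were 738 and 147, with no minimum 693 were lower, and with a 1.5-fold limit 2072 and 988, through the construction of these alternatives. Among the lists, a minimum of 5 CPM left 1 higher ligand gene, 0 higher genes of CD27 and 4-1BB signalling, 1 lower B cell marker and 0 lower plasma cell markers. With total counts or T cell receptor genes as the scale, Traf1 was no longer past 2-fold and 0 genes of CD27 and 4-1BB signalling were lower. A 1.5-fold limit gave 2 lower genes in that list, 2 higher B cell markers, 1 lower NK cell marker, 2 higher plasma cell markers and 3 higher genes among competing and inhibitory receptors. With Cdon in place of Cdcp1, an alternative added after the data were seen, 3 ligand genes were higher and the median was 0.71. With total counts or T cell receptor genes as the scale, 3 other TNF receptor family costimulators were higher, against 2. Adding 0.5 to each count moved no pair ratio beyond its interval. No paired analysis was possible because each genotype has 1 library. Depth limits the receptors little, with at least 354 counts each, but ligand genes such as Pvrl2 and Cdcp1 rest on a few WT reads.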
